A study of Rattus norvegicus with 2 samples.

Results

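The genes described here are the splicing factors and heterogeneous nuclear ribonucleoproteins (hnRNPs) on a rat expression array, taken as every gene whose symbol begins with Srsf, Hnrnp, Sf3, Snrp, Prpf or Lsm. The rule uses symbols, with the brightest probe where a gene had several, and it was set with earlier results of these data known. It gave 57 genes out of 13337 named on the array. They fall into 6 groups by role, with 9 SR proteins, 17 hnRNPs, 5 genes of the U2-associated SF3 complex, 5 snRNP proteins, 10 PRP factors and 11 LSm proteins.

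Pre-mRNA splicing removes introns from new transcripts in the nucleus. The work is done by the spliceosome, which is built from small nuclear ribonucleoproteins (snRNPs), each an RNA carried on a ring of Sm or LSm proteins together with proteins of its own. SR proteins bind exons and mostly promote the use of nearby splice sites, whereas many hnRNPs coat the transcript and often repress them. In skeletal muscle, alternative splicing sets the protein isoforms of the sarcomere, among them those of the troponins and titin.

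Skeletal muscle RNA came from male Wistar rats of 8 to 10 weeks, all diabetic after streptozotocin (STZ), a toxin of the pancreatic beta cells. The EA sample received electroacupuncture at the ST36 point of the lower leg, with 5 min of needling and then 60 min of current at 15 Hz and 10 mA. The other sample is labelled Mock, and as its label repeats the same treatment text, what those animals received is not stated. Each group has 1 Illumina bead array, the number of rats behind it is not stated, and the streptozotocin treatment is shared by both, so no non-diabetic muscle enters the comparison.

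With 1 array per group, the precision is limited by that number, and no difference below has a replicate check, a standard error or a p-value. A probe was called detected when its detection p, which compares it with control probes that should bind nothing, was under 0.01. Of 22523 probes, 7235 were detected on the EA array, against 6918 on the Mock array. Probes without signal had a median of 119 on the EA array, against 114 on the Mock array. A deposited signal can be higher on the EA array while the normalized one is not. Differences are given as log2 EA minus Mock of the normalized signal, and signals of different probes say nothing on which gene has more transcript.

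The splicing genes were detected more often than the genes of the array as a whole. On both arrays 47 of the 57 (82.5%) were detected, against 37.8% of all genes. Hnrnpr was detected on the Mock array only, none on the EA array only, and 9 on neither array. Those 9 were Srsf10, Srsf12, Hnrnpab, Snrpc, Snrpd1, Prpf18, Prpf31, Lsm1 and Lsm11, with deposited signals from 104 to 153 in EA muscle, against 104 to 142 in Mock muscle, so no difference is read from them. A further 34 protein-coding genes with these symbols in RefSeq had no named probe here, including Srsf1, Srsf4, Hnrnpc, Snrpb, Prpf6 and Lsm2.

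Splicing genes differed little between the arrays. The RNA is from whole muscle, where fewer cells of a type and less RNA per cell cannot be told apart. None of the 47 genes detected on both was 1.5-fold higher on the EA array, where 6.26% of all 5047 genes detected on both arrays were. Only 2 of the 47 were at least 1.5-fold lower, where the share over all genes was 3.86%, so that this count lies near the background. None reached 2-fold in either direction, against 2.08% of all genes higher and 0.456% lower. The median difference of the 47 was -0.03, beside -0.06 over all genes, and 25 of them lay above the median gene and 22 below. The middle 50% of the splicing genes spanned 0.38 log2 units, as did that of all genes. The extremes of the 47 were -0.79 and 0.35, where those over all 5047 genes were -3.63 and 5.84. Extremes widen with the number of genes, so these ranges are not compared. The scatter between probes of the same gene gives a scale for these values. Over 65 genes with several detected probes it had an SD of 0.30 per probe, so that 95% of single-probe differences would lie within 0.59 if that scatter is normal, a range that leaves out variation between animals. Of the splicing genes 45 of 47 (95.7%) lay within it, and of all genes 90.2%.

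**Figure D1:**
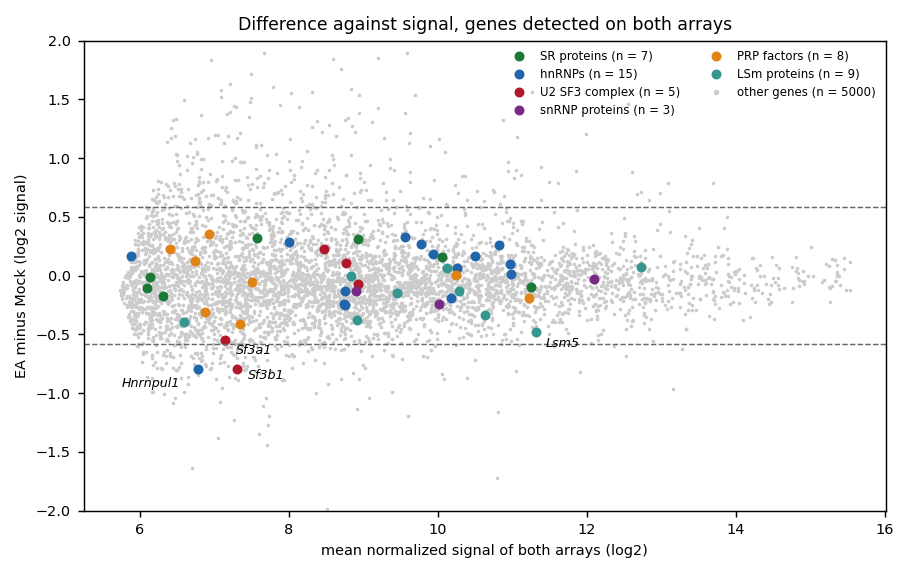
The y axis gives the log2 difference (EA minus Mock) and the x axis the mean normalized log2 signal, with the 47 splicing genes coloured by group over 5000 other genes in grey and 1.5-fold marked by dashed lines. All splicing genes lie between -0.79 and 0.35. Of the 5000 other genes, 26 fall outside the axis limits of -2 and 2. With so few splicing genes, these ranges are not compared.

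The genes past 1.5-fold were Hnrnpul1 and Sf3b1, both lower on the EA array and each measured by 1 probe. Hnrnpul1 encodes a nuclear RNA-binding protein related to hnRNP U. Its deposited signal was 196 in EA muscle, against 240.0 in Mock muscle, and its normalized log2 signal was 6.38 in EA muscle, against 7.17 in Mock muscle, a difference of -0.79 or 1.73-fold lower. Sf3b1 encodes the largest subunit of the SF3B complex, which holds the branch site of the intron in the U2 snRNP. Its deposited signal was 235 in EA muscle, against 302 in Mock muscle, with normalized values of 6.90 in EA muscle, against 7.69 in Mock muscle, again a difference of -0.79 or 1.73-fold lower. Both probes were dim, at signals not far above the 119 and 114 of probes without signal, where the size of a difference depends on the background correction. Without background correction the differences were -0.38 for Hnrnpul1 and -0.45 for Sf3b1, and in the authors' processed values -0.48 for Hnrnpul1 and -0.51 for Sf3b1, all short of 1.5-fold.

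The promoters of these genes are shown because they were the only members past 1.5-fold. Each is the RefSeq window from 250 bases before to 50 bases after the gene's start, 5′ to 3′ on the gene's strand, in the GRCr8 assembly, at chr1:90390321-90390620 on the minus strand for Hnrnpul1 and chr9:64026670-64026969 on the minus strand for Sf3b1. Capitals mark the GC box, GGGCGG on either strand, the only match in these windows to 8 motifs searched.
Hnrnpul1: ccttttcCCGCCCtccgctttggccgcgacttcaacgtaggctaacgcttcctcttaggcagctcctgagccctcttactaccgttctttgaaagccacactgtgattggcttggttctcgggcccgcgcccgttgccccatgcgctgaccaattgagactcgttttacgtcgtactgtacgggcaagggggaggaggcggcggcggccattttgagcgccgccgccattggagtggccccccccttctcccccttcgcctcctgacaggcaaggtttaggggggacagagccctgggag
Sf3b1: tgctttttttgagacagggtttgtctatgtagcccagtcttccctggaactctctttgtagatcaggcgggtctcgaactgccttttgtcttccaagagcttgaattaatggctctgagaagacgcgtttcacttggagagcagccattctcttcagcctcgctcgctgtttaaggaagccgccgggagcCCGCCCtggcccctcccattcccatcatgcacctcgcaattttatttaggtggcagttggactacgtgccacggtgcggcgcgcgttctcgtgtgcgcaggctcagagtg
Counted from the gene's start, the GC box spans positions -243 to -238 in Hnrnpul1 and -60 to -55 in Sf3b1. GC content was 62.3% for Hnrnpul1 and 54.7% for Sf3b1.

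The promoters of the splicing genes as a set were rich in GC and held motifs that are common in promoters of broadly expressed genes. RefSeq windows were found for 54 of the 57 genes (not for Lsm1, Lsm14a and Sf3b2), with a median GC content of 60.2% and a median of 24.5 CpG pairs, against 52.3% and 7 over 27457 windows of all genes. A GC box was present in 34 of the 54 (63.0%), against 34.9% of all windows. CCGGAAG, the core bound by ETS factors, was in 13 (24.1%), against 9.22%, and the motif of NRF1 in 11 (20.4%), against 4.71%. The part of base composition in these shares was not tested. Motifs of factors that answer stimuli were in few windows, as they were over all genes. With counts this small, their shares are not read as a trait of the set. The cAMP response element TGACGTCA was in 1 window, that of Lsm12 (1.85%, against 1.91% of all), and the AP-1 motif TGANTCA in 1, that of Hnrnpa1 (1.85%, against 7.33%). The Egr motif GCGNGGGCG was in those of Hnrnpa3, Hnrnpdl and Srsf2 (5.56%, against 5.29%), the heat shock element in that of Hnrnpa2b1 (1.85%, against 0.736%), and TATAAA in 5 windows (9.26%, against 14.3%). Both strands were searched, motifs could overlap, and a match is a string of letters and not a bound site.

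**Figure D2:**
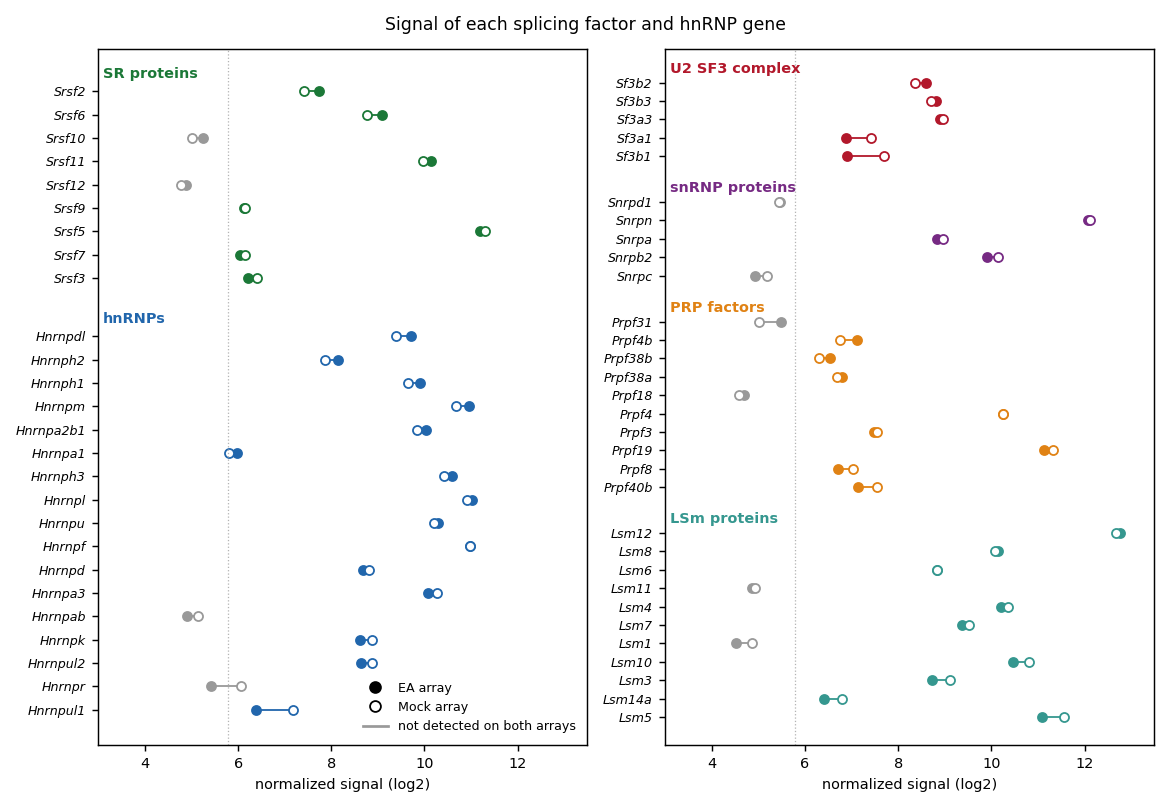
Each row is a gene of the set, with its normalized log2 signal in EA (filled) and in Mock (open), sorted within each group by the difference. Grey rows are the 10 genes not detected on both arrays, the dotted line is the lowest signal of a detected probe on the Mock array (5.79), and where only an open circle shows, as for Lsm6, the points coincide.

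Among SR proteins the differences were small and went both ways. Of 7 detected genes, 3 lay above 0 and 4 below (57.1%, against 58.5% of all genes). The median was -0.01, with a range from -0.17 to 0.32. Srsf2, a factor of nuclear speckles that binds exonic enhancers, had a signal of 327 in EA muscle, against 264 in Mock muscle, the highest difference of the group at 0.32. Srsf6 followed at 0.31, with 666 in EA muscle, against 527 in Mock muscle. Both were higher on the EA array under every setting tried. Srsf5 had the brightest probe of the group, with 2461 in EA muscle, against 2600.3 in Mock muscle, a difference of -0.10. Srsf3, which also takes part in mRNA export, was lowest at -0.17, although its deposited signals, 187 in EA muscle against 181 in Mock muscle, ran the other way. Srsf7, another SR protein of mRNA export, had 177 in EA muscle, against 168 in Mock muscle, a difference of -0.11. Srsf9 had 182.0 in EA muscle, against 168 in Mock muscle, a difference of -0.01. The signs of Srsf3, Srsf7, Srsf9 and Srsf11 changed under at least 1 other processing setting, so no direction is given for them. RefSeq lists 10 pseudogenes of Srsf3 and 7 of Srsf7, which a probe may not separate from the gene.

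Srsf11, which encodes an SR-related protein, was measured by a pair of detected probes, as was Lsm10. The brighter Srsf11 probe had 1231 in EA muscle, against 1099 in Mock muscle, a difference of 0.16. The other had 530.5 in EA muscle, against 361 in Mock muscle, a difference of 0.62. That second probe would put Srsf11 past 1.5-fold, but it differed by 0.46 without background correction and by 0.45 in the authors' processed values. Whether the probes read different isoforms was not tested. For Lsm10, a protein of the U7 snRNP that processes histone mRNA, the brighter probe had 1514 in EA muscle, against 1886 in Mock muscle, a difference of -0.33, and the other 429.6 in EA muscle, against 544 in Mock muscle, a difference of -0.54. Both Lsm10 probes were lower on the EA array.

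The median hnRNP gene lay slightly above the median of all genes. Of 15 detected genes, 10 lay above 0 and 5 below (33.3%, against 58.5% of all genes). The median was 0.10, against -0.06 over all genes, and only Hnrnpul1 was past 1.5-fold. With arrays scaled to their 75th percentile over all probes the hnRNP median turned to -0.073 and that of all genes to -0.19, so that it stayed 0.12 above. The highest was Hnrnpdl, related to the AU-rich element binding protein hnRNP D, with 962 in EA muscle, against 767 in Mock muscle, a difference of 0.33. It was higher on the EA array under every setting tried. Genes of the H and F family, which bind runs of G, lay between 0.02 and 0.28. Hnrnph2 had 399 in EA muscle, against 329 in Mock muscle, a difference of 0.28. Hnrnph1 had 1078 in EA muscle, against 895 in Mock muscle, a difference of 0.27. Hnrnph3, a shorter relative, had 1650.2 in EA muscle, against 1471 in Mock muscle, a difference of 0.16. Hnrnpf, the brightest probe of the group by the mean of both arrays, showed almost none, with 2149 in EA muscle, against 2088 in Mock muscle, a difference of 0.02. The signs of Hnrnph3 and Hnrnpf turned under the 75th percentile over all probes.

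The large hnRNPs M, L and U were bright on both arrays. Hnrnpm, which binds GU-rich RNA, had 2102 in EA muscle, against 1761 in Mock muscle, a difference of 0.26. Hnrnpl, which binds CA repeats, had 2212 in EA muscle, against 2023 in Mock muscle, a difference of 0.10. Hnrnpu, also a scaffold protein of chromatin, had 1343 in EA muscle, against 1294 in Mock muscle, a difference of 0.07. Of these, Hnrnpm kept its sign under every setting, and those of Hnrnpl and Hnrnpu turned under the 75th percentile over all probes.

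The A and B type hnRNPs, the best known repressors of exon use, showed no common direction. Hnrnpa2b1 had 1159 in EA muscle, against 1009 in Mock muscle, a difference of 0.19. Hnrnpa3 had 1197 in EA muscle, against 1353 in Mock muscle, a difference of -0.19. Hnrnpa1 was barely detected, with 174 in EA muscle, against 154 in Mock muscle, and had detection p of 0.00606 in EA muscle, against 0.00970 in Mock muscle. RefSeq lists 51 Hnrnpa1 pseudogenes, so its value of 0.17 is uncertain. On the low side, Hnrnpul2, a relative of Hnrnpul1, had 516 in EA muscle, against 561 in Mock muscle, a difference of -0.25. Hnrnpk, which binds poly(C) runs, had 514 in EA muscle, against 558 in Mock muscle, a difference of -0.24. Hnrnpd, which also governs mRNA decay, had 532 in EA muscle, against 542 in Mock muscle, a difference of -0.13. These were lower on the EA array under every setting, and all 3 are within the probe scatter. RefSeq lists 7 Hnrnpk pseudogenes, which a probe may not separate from the gene. Hnrnpr had 151 in EA muscle, against 165 in Mock muscle, with detection p of 0.0267 in EA muscle, against 0.00727 in Mock muscle. It was therefore detected on the Mock array alone, and its lower bound was under 1.5-fold.

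**Figure D3:**
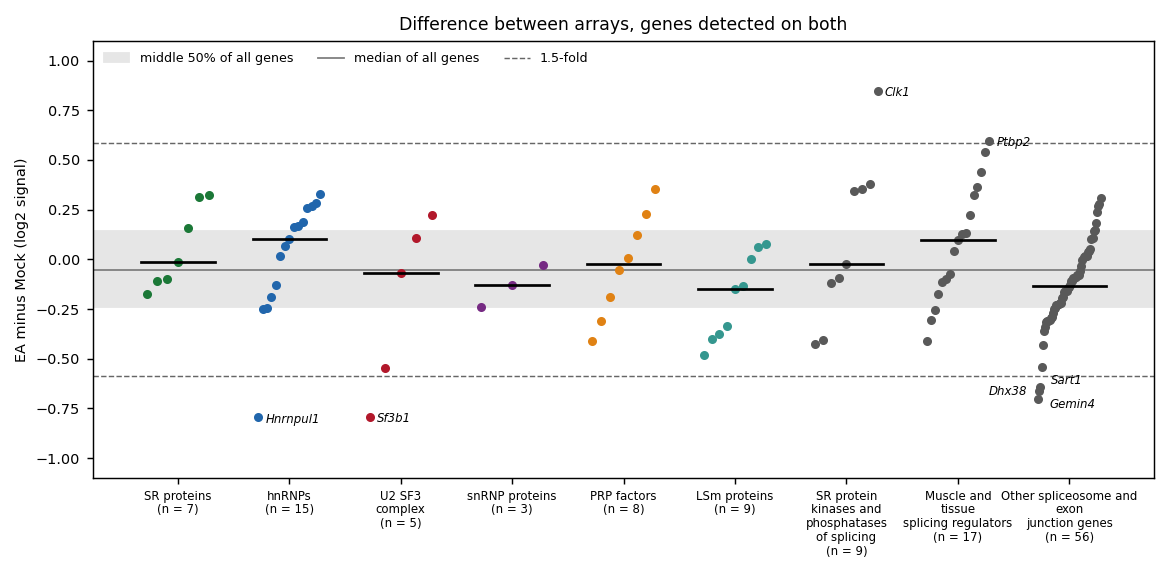
Points are genes detected on both arrays, the y axis is the log2 difference (EA minus Mock), black bars are group medians, and the grey band is the middle 50% of all genes (-0.24 to 0.14). The splicing genes stay within 1.5-fold (dashed lines) except Hnrnpul1 and Sf3b1, and the related lists on the right hold Clk1 at 0.85 as their highest value.

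In the SF3 complex, which recognises the branch site within the U2 snRNP, the subunits differed among themselves. Sf3a1, a subunit of the SF3A part, had 232 in EA muscle, against 266 in Mock muscle, a difference of -0.55 or 1.46-fold lower, just short of the threshold. Next to it and to Sf3b1, the other 3 subunits lay close to 0 or above it. Sf3b2 had 505 in EA muscle, against 422 in Mock muscle, the highest at 0.22. Sf3b3, a scaffold of beta-propellers, had 567 in EA muscle, against 505 in Mock muscle, a difference of 0.11. Sf3a3, the brightest probe of the group, had 592 in EA muscle, against 587 in Mock muscle, a difference of -0.07. The lowest subunits were those with the dimmest probes, and the signs of Sf3b3 and Sf3a3 changed under at least 1 other setting. Among Sf3b2, Sf3b3 and Sf3a3 the order ran the other way, with the brightest probe lowest. The part of signal in the spread within the complex was not tested.

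Of the snRNP proteins 3 genes were detected, and all of these lay below 0 under every setting that keeps them, as did 58.5% of all genes under the main setting. Snrpb2, which binds the U2 RNA, had 1069 in EA muscle, against 1225 in Mock muscle, a difference of -0.24. Snrpa, a protein of the U1 snRNP, had 577 in EA muscle, against 589 in Mock muscle, a difference of -0.13. Snrpn, an imprinted gene for an Sm core protein, had 4402 in EA muscle, against 4536 in Mock muscle, a difference of -0.03. The median of the 3 was -0.13. Relative to the median gene, Snrpn lay 0.03 higher and did not keep that side under every setting. RefSeq lists 4 Snrpn pseudogenes and 10 of Snrpc, and most genes of the Sm ring had no named probe here, so the core of the snRNPs was largely unmeasured.

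The PRP factors, named after yeast mutants in pre-mRNA processing, lay on both sides of 0, with a median of -0.02. Of 8 detected genes, 4 lay above 0 and 4 below (50%, against 58.5% of all genes). Relative to the median gene, 5 lay above and 3 below. Prpf4b, a kinase of splicing factors, was highest, with 252 in EA muscle, against 203 in Mock muscle, a difference of 0.35. Prpf40b, a protein associated with the U1 snRNP, was lowest, with 255 in EA muscle, against 282 in Mock muscle, a difference of -0.41. Prpf8, the protein at the catalytic centre of the spliceosome, had 219 in EA muscle, against 224 in Mock muscle, a difference of -0.31. Both ends of this group were dim probes. The brightest, Prpf19, a ubiquitin ligase of the spliceosome, had 2342 in EA muscle, against 2641 in Mock muscle, a difference of -0.19. Prpf3, a protein of the U4/U6 snRNP, had 294 in EA muscle, against 279 in Mock muscle, a difference of -0.05. Its partner Prpf4 had 1316 in EA muscle, against 1326 in Mock muscle, a difference of 0.01. Neither kept one sign over the settings. Prpf38b, a factor of the precatalytic spliceosome, had 206 in EA muscle, against 175 in Mock muscle, a difference of 0.23. Prpf38a, its relative, had 226 in EA muscle, against 198 in Mock muscle, a difference of 0.12.

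LSm proteins had the lowest median of the 6 groups. Of 9 detected genes, 6 lay below 0 (66.7%, against 58.5% of all genes), 2 above and 1 at 0, with a median of -0.15. The same 6 lay below the median gene under every setting tried. Lsm5 was lowest, with 2277 in EA muscle, against 3114 in Mock muscle, a difference of -0.48 or 1.40-fold lower from a bright probe. Lsm5 belongs to the ring of Lsm2 to Lsm8 that binds the end of the U6 RNA, and in the cytoplasm to the related ring that starts mRNA decapping. The other ring members detected were not uniform. Lsm3 had 545 in EA muscle, against 638 in Mock muscle, a difference of -0.38. Lsm7 had 780.1 in EA muscle, against 831 in Mock muscle, a difference of -0.15. Lsm4 had 1292 in EA muscle, against 1413 in Mock muscle, a difference of -0.13. All 4 kept a lower value on the EA array under every setting, unlike the next pair. Lsm6 had 573 in EA muscle, against 546 in Mock muscle, a difference of 0.00. Lsm8, found only in the U6 ring, had 1245 in EA muscle, against 1185 in Mock muscle, a difference of 0.06. Lsm14a, a protein of cytoplasmic RNA granules, differed by -0.40 from a dim probe, with 197 in EA muscle, against 206 in Mock muscle. Lsm12 had the brightest probe and the highest difference, with 7137 in EA muscle, against 6571 in Mock muscle, at 0.08. The signs of Lsm6, Lsm8 and Lsm12 were not kept under every setting.

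**Figure D4:**
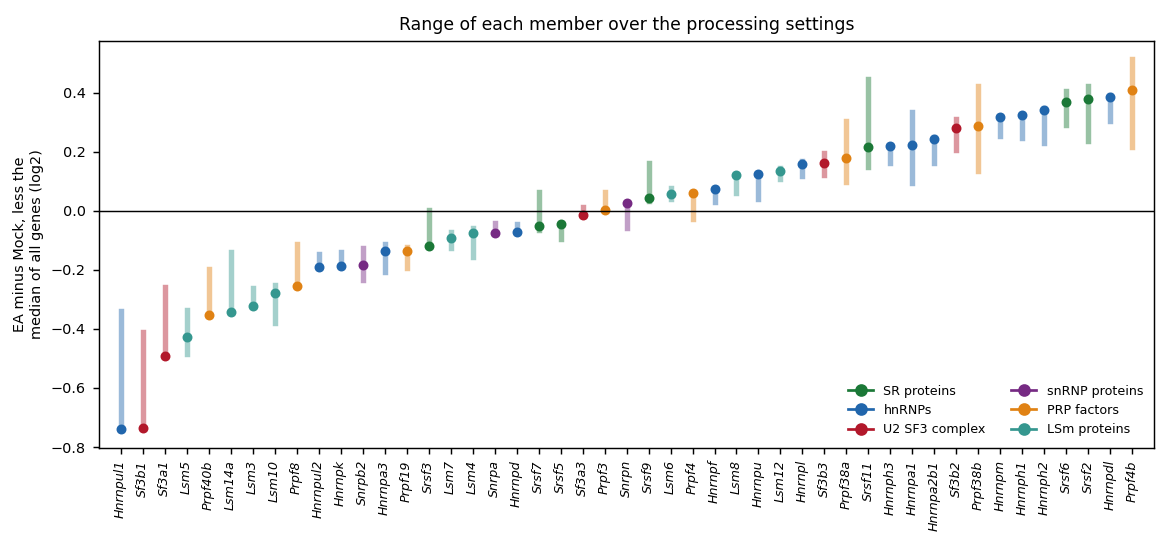
Points give each gene's log2 difference (EA minus Mock) less the median of all genes, and bars span its lowest and highest value over the settings of background, normalization, offset, probe choice and the authors' values. Of the 47 genes, 42 keep one side of the median gene under all of these, with Hnrnpul1 and Sf3b1 lowest and Prpf4b highest. The share over all genes is not given, and every setting uses the same pair of arrays.

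Genes that act on or beside these factors were taken from 3 further lists, of which 10 of 10 kinases and phosphatases, 24 of 30 tissue regulators and 64 of 87 other spliceosome genes had a probe. Kinases and a phosphatase of SR proteins, a list that also holds Prpf4b, had a median of -0.03 over 9 detected genes, of which 1 was higher by 1.5-fold or more on the EA array and none was lower by as much, where the shares over all genes were 6.26% higher and 3.86% lower. That gene was Clk1, a kinase that phosphorylates SR proteins, with 1826 in EA muscle, against 1052 in Mock muscle, a difference of 0.85 or 1.80-fold higher. Its signal was bright, and the difference was 0.65 in the authors' processed values and 0.78 without background correction. Clk2 was lowest at -0.43, with 189.9 in EA muscle, against 199 in Mock muscle, and Clk4 differed by -0.03.

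Splicing regulators of muscle and other tissues had a median of 0.10 over 17 detected genes (-0.068 with the 75th percentile over all probes), of which 1 was higher by 1.5-fold or more and none was lower by as much, beside the same 6.26% and 3.86% of all genes. It was Ptbp2, a polypyrimidine tract binding protein best known from neurons, with 264 in EA muscle, against 194 in Mock muscle, a difference of 0.60. It fell short of 1.5-fold without background correction (0.30), with an offset of 50 (0.47) and in the authors' processed values (0.38). Rbfox2, which binds GCAUG elements in muscle and heart transcripts, was lowest at -0.41, with 166 in EA muscle, against 171 in Mock muscle. Both were dim. Other spliceosome and exon junction genes had a median of -0.13 over 56 detected genes, with 40 below 0 (71.4%, against 58.5% of all genes), none at least 1.5-fold higher (6.26% of all genes) and 3 lower (3.86%). These were Gemin4 of the SMN complex, with 195 in EA muscle, against 228 in Mock muscle (-0.70), the helicase gene Dhx38, with 163 in EA muscle, against 179.9 in Mock muscle (-0.66), and Sart1 of the tri-snRNP, with 521 in EA muscle, against 720 in Mock muscle (-0.64). All 3 fell short of 1.5-fold in the authors' processed values, at -0.42 for Gemin4, -0.43 for Dhx38 and -0.51 for Sart1, and without background correction, at -0.33 for Gemin4, -0.24 for Dhx38 and -0.52 for Sart1. The highest was Luc7l2, a U1-associated protein, at 0.31. In the 3 lists, Nova1 and Srrm1 were detected on the EA array only, and Clk3 and Ctnnbl1 on the Mock array only. The list medians are read beside -0.06 over all genes, and the list furthest from it, the tissue regulators, lay 0.15 above it.

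Markers of cell types within the muscle also differed between the arrays. Their counts past 1.5-fold are read beside 6.26% of all genes higher and 3.86% lower. Markers of skeletal muscle fibres were bright on both arrays, with all 9 measured of 12 listed detected and a median difference of 0.03. Of these, 1 was at least 1.5-fold higher, Myh4 (0.70), and none was lower by as much, with Mb lowest at -0.45. The summed normalized signal was 277910 in EA muscle, against 265644 in Mock muscle. Slow fibre genes were lower on the EA array, with all 4 detected on both arrays at least 1.5-fold lower, 2 detected on the Mock array only, Myl2 and Tnni1 on neither, and a summed signal of 2125 in EA muscle, against 7168 in Mock muscle. Fibroblast genes were higher, with 7 of 9 detected at least 1.5-fold higher, Thy1 not detected, and a summed signal of 18391 in EA muscle, against 10154 in Mock muscle. Endothelial genes had 3 of 6 at least 1.5-fold higher, Cdh5 and Tek not detected, and sums of 2113 in EA muscle, against 1229 in Mock muscle. Their other detected genes were Emcn (0.21), Vwf (0.19) and Egfl7, which was lower (-0.30). Macrophage genes had 2 of 5, with Ptprc, Itgam and Cd163 not detected, and sums of 1630.4 in EA muscle, against 1162 in Mock muscle. The rest of those detected were Cd74 (0.23), Aif1 (0.03) and C1qa (0.01). Erythrocyte genes had 3 of 4, with Alas2, Hba-a2 and Slc4a1 not detected and sums of 30779 in EA muscle, against 17935 in Mock muscle. Ahsp, also detected, lay below 0 (-0.15). Adipocyte genes had 1 of 4, Cfd (0.85), while the other 3 detected lay below 0 and the list median was -0.13. Adipoq, Lep and Pparg were not detected, and the sums were 4794 in EA muscle, against 4259.6 in Mock muscle. Immediate early genes were the most different list, with 4 of 5 at least 1.5-fold higher, 2 more detected on the EA array only, and sums of 22891 in EA muscle, against 2839 in Mock muscle. The part of these shifts in the splicing gene values was not tested.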

How the data were processed

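The authors deposited a non-normalized table and a series table. Per the file headers, the non-normalized table holds a linear probe intensity per array, each followed by its detection p-value. The series table holds a further intensity value per probe, with its processing not given in the sources used here. Every p-value column was checked against the signal beside it (Spearman rho across probes -0.995 for EA and -0.996 for Mock). Per the labels' protocols, biotinylated cRNA came from total RNA.

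Background was modelled with limma's nec (R 4.3.3, limma 3.58.1), using the p-value columns and adding 16 before log2, with quantile normalization between arrays. The steps were tested on data simulated from the Mock array, with known rises of 2-fold or more in clearly detected probes. Falls and smaller rises were not simulated, so that test does not cover differences of the size reported here. Symbols came from GEO's platform annotation, whose names can be old. They were checked by gene identifier against RefSeq (GRCr8): all 57 genes matched and none changed symbol. A gene took its brightest probe. Tables and figures used Python 3.11.15 with pandas 2.3.3 and matplotlib 3.10.9. Detection on 1 array only gave a lower bound, the bright signal over the higher of the dim signal and the lowest detected signal of the dim array.

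Genes named by rule were those past 1.5-fold, the brightest, highest and lowest of each group, those with several probes, and those of the 57 detected on 1 array, and of the further lists those past 1.5-fold with the highest and lowest. Other genes, for which that rule sets no direction, were named with their differences after their values were seen. The gene set and lists were chosen with earlier results of these data known. Alternatives covered background, normalization, offset, probe choice, detection and the authors' values.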

Additional observations from a re-analysis of the deposited data

How the results depend on the processing

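No test or paired analysis was possible because each group has 1 array, and no replicate could be left out. By its brightest probe or the mean of its detected probes, no splicing gene was 1.5-fold higher on the EA array under any setting tried. Nor was any 2-fold different in either direction. The second Srsf11 probe taken alone was past 1.5-fold higher under the main setting (0.62). The 2 genes at least 1.5-fold lower, Hnrnpul1 and Sf3b1, numbered 0 without background correction (0.852% of all genes) and 0 with the authors' processed values (0.872%). With Hnrnpr the count was 3 of 49 at a detection p under 0.05 (4.22%) and 3 of 57 with no detection filter (2.52%). It was 6 at a 1.3-fold threshold (12.7%), where 0 of the 47 were higher by as much (11.3% of all genes). The count was 4 (with Lsm5 and Sf3a1) when arrays were scaled to the 75th percentile over all probes (7.59%). Both that threshold and this scaling were chosen after seeing the data. That scaling moved the median of all genes by -0.14 to -0.19, and the medians with it, to -0.16 for all splicing genes, -0.073 for hnRNPs, -0.20 for the SF3 complex, -0.26 for snRNP proteins, -0.18 for PRP factors, -0.35 for LSm proteins, -0.15 for the kinases, -0.068 for the tissue regulators and -0.29 for the other spliceosome genes. The hnRNP median stayed 0.12 above the median gene there, and the median of all splicing genes 0.03 above it. The SR protein median was 0.17 with the 75th percentile over detected probes and 0.095 with no detection filter, and the cause was not tested. Of 47 genes, 32 had the same sign under all settings of background, normalization, offset, probe choice and the authors' values, and 42 the same side of the median gene. All these settings reprocess the same pair of arrays, and the matching shares over all genes are not given, so the counts are not read as a trait of the splicing genes. Without background correction the differences of Hnrnpul1, Sf3b1, Gemin4 and Dhx38 were smaller by more than the probe SD of 0.30, at -0.38, -0.45, -0.33 and -0.24, as was that of Hnrnpul1 with the authors' values, at -0.48. Gemin4 (-0.53), Dhx38 (-0.49) and Sart1 (-0.58) also fell short of 1.5-fold with the 75th percentile over detected probes, Gemin4 (-0.53) and Dhx38 (-0.44) with an offset of 50, Sart1 (-0.57) with cyclic loess, and Ptbp2 (0.56) with the 75th percentile over all probes. Signal near background limits the 10 splicing genes with a mean log2 signal under 7. It also bears on dim genes above that mark, such as Sf3b1 and Sf3a1. Their differences were -0.79 and -0.55, and -0.45 and -0.30 without background correction.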
